A study of Mus musculus with 12 samples.

Results

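The regions described here are LSD1 peaks at promoters that also carried H3K4me2 in control liver. They are the entries of the LSD1 list whose centre lay within 1 kb of the transcription start site (TSS) of a protein-coding gene and whose interval overlapped an interval of the control H3K4me2 list by at least 1 bp. Of 14584 LSD1 peaks, 4970 were centred within 1 kb of a TSS, and 4581 of these met both criteria. The 4581 member peaks made up 31.4% of the LSD1 list. A further 389 promoter peaks had no control H3K4me2 interval, and 3080 LSD1 peaks overlapped control H3K4me2 away from promoters.

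LSD1 ChIP-seq was done in liver of wild type C57BL/6 mice, and H3K4me2 ChIP-seq in liver of GFP control and LSD1-LKO mice, both on C57BL/6. Both groups carried floxed Lsd1 alleles (LSD1 fl/fl). Controls had received AAV8-TBG-GFP and LSD1-LKO mice AAV8-TBG-Cre as adults, so that the Tbg promoter drove Cre in hepatocytes and the other liver cells kept Lsd1. According to the methods, AAV was injected in young adult mice, a high fat diet was started soon after and tissue was taken after some weeks of it, with no separate entry for the ChIP-seq animals. They also state that mice were male in most experiments, apart from those named otherwise, again without an entry for ChIP-seq. The age and diet of the wild type mice were not given in the sources used here. The floxed allele was present in both H3K4me2 groups but not in the wild type LSD1 group. Each list combined 2 ChIP libraries, numbered as replicates. The peak names carry a different number for each library, but nothing states that these are separate animals. LSD1 itself was not profiled in LSD1-LKO liver.

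LSD1 (KDM1A) is a flavin-dependent demethylase that removes methyl groups from mono- and dimethylated lysine 4 of histone H3, and it works in a complex with CoREST proteins and the histone deacetylases HDAC1 and HDAC2. H3K4me2 is found at active and poised promoters and at enhancers, commonly on the nucleosomes that flank the nucleosome-poor start site of transcription. The comparison of H3K4me2 between control and LSD1-LKO liver at LSD1-bound promoters asks where a substrate of the enzyme lay with and without the enzyme in hepatocytes.

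Stretches of promoter DNA under 7 high-ranking member peaks are shown because they carry letters of factors that bind promoters of mitochondrial or liver genes. NRF1, ETS/GABP and ERR act on mitochondrial gene promoters, and C/EBP and HNF4A are liver factors. Each stretch was read from GRCm38 (mm10) inside the LSD1 peak, upstream of the nearest protein-coding TSS and outside annotated exons. It is written 5′ to 3′ along the gene with the matched letters in capitals. The stretch of Nup85, a nuclear pore protein, is chr11:115564114-115564241 on the + strand, with the NRF1 letters on the opposite strand from −260 to −253 bp of the TSS. That of Pde4dip, a centrosome and Golgi anchoring protein, is chr3:97768010-97768134 on the − strand, with the NRF1 letters from −65 to −58 bp. In Nup85 the NRF1 letters also occur on the gene strand, in an overlapping match that runs on past the capitals.
Nup85: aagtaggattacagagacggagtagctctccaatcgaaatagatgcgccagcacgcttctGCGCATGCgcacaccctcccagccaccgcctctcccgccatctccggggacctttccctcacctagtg
Pde4dip: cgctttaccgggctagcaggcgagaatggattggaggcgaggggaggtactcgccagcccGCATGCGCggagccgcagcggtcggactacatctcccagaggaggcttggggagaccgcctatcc

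The ETS/GABP letters lay from −45 to −38 bp of the TSS in Trim44, which encodes a tripartite motif protein (chr2:102400901-102401005, − strand), and from −55 to −48 bp in Mrpl48, which encodes a protein of the large mitochondrial ribosomal subunit (chr7:100583111-100583225, − strand). In Mrpl48 the capitals show the letters on the opposite strand.
Trim44: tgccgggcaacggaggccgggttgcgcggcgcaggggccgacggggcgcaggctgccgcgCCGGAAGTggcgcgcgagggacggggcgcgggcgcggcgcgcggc
Mrpl48: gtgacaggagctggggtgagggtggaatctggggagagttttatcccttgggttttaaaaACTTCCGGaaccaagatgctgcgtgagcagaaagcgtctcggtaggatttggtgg

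The ERR letters lay from −591 to −584 bp in Zdhhc17, a palmitoyltransferase (chr10:111010590-111010717, − strand), on the opposite strand. The C/EBP letters lay from −333 to −326 bp in Zbtb44, which encodes a zinc finger protein (chr9:31030251-31030378, + strand). The HNF4A letters lay from −197 to −189 bp in Snx11, a sorting nexin (chr11:96777688-96777816, − strand), again on the opposite strand.
Zdhhc17: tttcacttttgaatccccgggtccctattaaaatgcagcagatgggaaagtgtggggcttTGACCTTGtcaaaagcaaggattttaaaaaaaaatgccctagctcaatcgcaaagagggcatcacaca
Zbtb44: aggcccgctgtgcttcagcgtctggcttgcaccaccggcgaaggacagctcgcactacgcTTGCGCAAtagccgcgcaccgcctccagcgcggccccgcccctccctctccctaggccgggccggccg
Snx11: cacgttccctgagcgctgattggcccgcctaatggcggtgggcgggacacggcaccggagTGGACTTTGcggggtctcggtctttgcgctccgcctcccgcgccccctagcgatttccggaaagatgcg

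Several facts of the lists bear on all results. Peaks had been called in each library separately and only those found in both libraries were deposited, so the depth of the libraries is unknown. The first-listed library gave narrower H3K4me2 intervals than the second-listed library. Its peak names carried the word picard in both H3K4me2 lists and those of the second-listed library did not. The part that this difference between libraries played in the results was not tested. The control list held 43891 intervals covering 38.9 Mb and the LSD1-LKO list 50675 intervals covering 38.0 Mb. At the targeted gene, Kdm1a, the lists held no LSD1 peak and no control H3K4me2 within 1 kb of a TSS. In LSD1-LKO, H3K4me2 covered up to 910 and 1805 bp of the 2001 bp around a Kdm1a TSS in the first- and second-listed library. Interval lists cannot show whether the floxed exon was deleted. The values of cell type markers that follow are from first-listed intervals only, so they do not show whether the second-listed libraries differed likewise. Among these markers, 6 of 8 hepatocyte markers had control H3K4me2 within 1 kb of a TSS, with covered lengths from 0 to 1672 bp. In LSD1-LKO all 8 had it, with 277 to 1437 bp. Alb and Cps1 went from 0 to 677 and 277 bp and Apob and Serpina1a from 1038 and 1270 to 1365 and 1437 bp, while Ttr, Fgb, Apoa1 and Hnf4a went from 1561, 1424, 1672 and 1370 bp to 625, 355, 915 and 769 bp. None of the 4 Kupffer cell and macrophage markers, the 4 endothelial markers or the 3 T and B cell markers had control H3K4me2. Of the others, 2 of 4 cholangiocyte markers (Sox9 and Epcam) and 1 of 4 stellate markers (Reln) did. The endothelial marker Kdr and the stellate marker Lrat were at 0 in control and had 292 and 277 bp in LSD1-LKO. The part of these cell types in the results was not tested. Members included the promoters of Apoa1, Apob and Fgb, which encode hepatocyte plasma proteins, and of Sox9. In whole liver, fewer cells of a type and less of the mark per cell cannot be told apart.

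Member peaks sat on the TSS. The median centre lay 28 bp downstream of the nearest TSS along the gene, and the middle 50% of the members lay between −89 and 177 bp. The median absolute distance was 136 bp. Centres lay within 100 bp of a TSS in 40.4% of members, within 250 bp in 71.4% and within 500 bp in 90.5%. The fullest 50-bp bin was the first downstream one, with 558 peaks, and the adjoining upstream bin held 539. The interval covered the nearest TSS in 3396 members (74.1%, 95% Wilson confidence interval 72.8% to 75.4%; these intervals cover counting error only). Among the 389 promoter peaks without control H3K4me2 the share was 49.1% (44.2% to 54.1%) and the median absolute distance 206 bp. Centres were downstream of the TSS in 57.4% of members (56.0% to 58.8%), upstream in 42.2% and on it in 16 peaks.

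**Figure D1:**
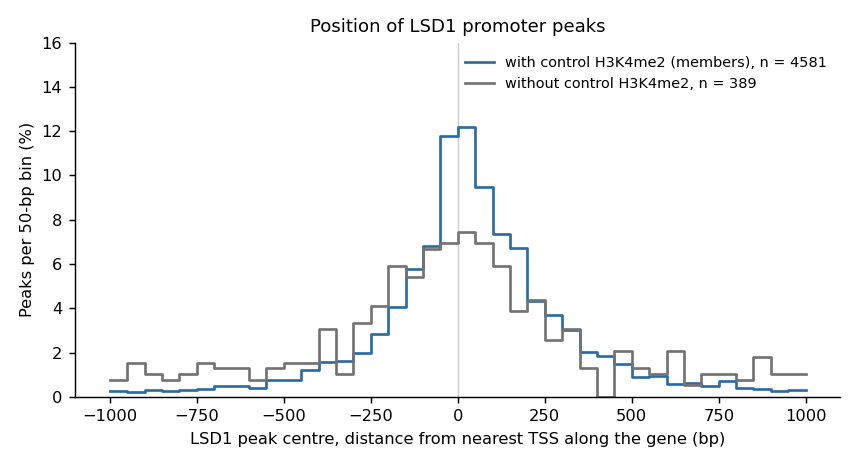
Position of LSD1 promoter peaks. The x axis gives the distance of the LSD1 peak centre from the nearest protein-coding TSS in bp, positive downstream along the gene, and the y axis the percentage of peaks per 50-bp bin, for 4581 members and for 389 promoter peaks without control H3K4me2. Members rise to 12.2% in the bin just downstream of the TSS, and the other peaks are spread more widely.

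By annotation, 1507 member centres (32.9%) lay in untranslated exon sequence, 598 (13.1%) in coding exons, 153 (3.34%) in other exons of protein-coding genes, 1170 (25.5%) in introns and 1153 (25.2%) outside protein-coding genes. Intronic centres close to a TSS include those of genes with several start sites, as at Trim44 and Mrpl48. The 1 kb limit itself fell among ordinary values. Just inside it were the peaks of Atp5g1, a subunit of the mitochondrial ATP synthase, centred at 1000 bp with LSD1 fold enrichments of 3.24 and 3.43, and of Agap2, a GTPase-activating protein, at 996 bp with 4.01 and 3.17. Just outside it were those of Marc1, a mitochondrial amidoxime reductase, at −1001 bp with 4.56 and 4.72, and of Sepsecs, an enzyme of selenocysteine synthesis, also at −1001 bp with 4.07 and 3.18.

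The 4581 peaks belonged to 4721 protein-coding genes, since a peak was assigned to every gene with a TSS within 1 kb of its centre. Of the members, 4059 had 1 gene, 506 had 2 genes, 15 had 3 genes and 1 had 4 genes. Conversely, 350 genes had 2 members, 23 had 3 and 1 gene, Zmynd8, which encodes a chromatin reader and is named here after its values were seen, had 4. The members therefore share genes and are not independent of each other. A divergent pair of genes with start sites at most 1 kb apart lay within 1 kb of 414 members (9.04%, 8.24% to 9.90%), with a median gap of 115 bp between the start sites. The LSD1 centre lay between the start sites in 89 of the 414. H3K4me2 covered a median of 1660 bp of the 2001 bp around the LSD1 centre at these pairs in the first-listed control library, against 1536 bp at the other members.

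Member peaks were taller and wider than the rest of the LSD1 list. Fold enrichment is the MACS ratio of the ChIP signal over the local background of the control library. Its median was 3.34 and 3.56 in the first- and second-listed LSD1 library at members. It was 2.85 and 3.20 at promoter peaks without control H3K4me2, 3.07 and 3.28 at LSD1 peaks with control H3K4me2 away from promoters, and 2.71 and 2.79 at LSD1 peaks with neither feature. Median widths in the same order were 538, 389, 480 and 348 bp. When the list was ranked by −log10 p-value averaged over its libraries, the median member stood at percentile 71.9 of the list, with quartiles at 51.4 and 87.2. Each library gave a MACS p-value of 1e-05 or lower to 1025 members (22.4%) and to 44 of the 389 (11.3%). LSD1 height was not used to choose the members.

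The 8 highest-ranking members belonged to genes of varied function. The peak of Gpcpd1, a glycerophosphocholine phosphodiesterase (chr2:132577633-132578720), had LSD1 fold enrichments of 13.4 and 14.0 and was centred 10 bp downstream of the TSS. That of Zdhhc17 (chr10:111009472-111011120) had 15.8 and 10.7 and was centred at −230 bp. Epc1, a subunit of the NuA4 acetyltransferase complex, had 13.7 and 8.01. Rab23, a small GTPase that acts in Hedgehog signalling, had 13.1 and 12.7. Both libraries thus placed these 4 peaks well above the list medians of 2.90 and 3.0.

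The other 4 were Btbd2, Hira, Limk2 and Tatdn3. At Btbd2, a BTB domain protein, the fold enrichments of 7.49 and 17.8 differed most between the libraries. The peak at Hira, a histone H3.3 chaperone, also lay within 1 kb of the TSS of Mrpl40, a mitochondrial ribosomal protein, and had 10.8 and 11.5. Limk2, a kinase that phosphorylates cofilin, had 11.9 and 10.2. Tatdn3, a putative nuclease, shared its promoter with Nsl1, a kinetochore protein, and had 13.7 and 6.72. All 8 overlapped H3K4me2 in both lists.

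Covered length at these peaks is the number of base pairs under H3K4me2 intervals among the 2001 bp centred on the LSD1 peak. Gpcpd1 had 1493 and 1396 bp in the first- and second-listed control library and 953 and 1349 bp in LSD1-LKO. Tatdn3 had 1779 and 1460 bp in control and 1104 and 1397 bp in LSD1-LKO. At both genes the LSD1-LKO values were under the control values. Rab23 had 844 and 1363 bp in control and 884 and 1522 bp in LSD1-LKO, and Btbd2 had 1234 and 1286 bp in control and 978 and 1835 bp in LSD1-LKO. Zdhhc17 had 1746 and 2001 bp in control and 1879 and 2001 bp in LSD1-LKO, and Hira had 1789 and 2001 bp in control and 1545 and 2001 bp in LSD1-LKO. Epc1 had 1678 and 2001 bp in control and 1239 and 2001 bp in LSD1-LKO, and Limk2 had 1298 and 1806 bp in control and 1341 and 1785 bp in LSD1-LKO. At these other 6 genes the groups overlapped or touched.

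H3K4me2 was chosen to be present at the members in control liver, so its presence there is a description. In 3841 members (83.8%) the LSD1 peak overlapped 1 control interval and in 731 (16%) 2 intervals. It lay wholly inside control H3K4me2 in 2495 (54.5%). The control interval had median fold enrichments of 5.13 and 6.91 in the first- and second-listed library, where the whole list had 3.36 and 4.32. Its median width was 1530 bp, against 648 bp for the whole list. A rule of overlap favours wide intervals, so the width in part restates how the members were chosen.

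Along the gene, H3K4me2 cover dipped just upstream of the TSS between shoulders, and LSD1 cover was highest just downstream of the TSS. In the first-listed control library, H3K4me2 covered 77.8% of members at −300 bp, 70.1% at −100 bp and 92.9% at 300 bp. LSD1 peaks covered 77.3% of members at 50 bp. The first-listed LSD1-LKO library had the same outline with a deeper dip, with 71.2% at −350 bp, 59.0% at −100 bp and 85.2% at 450 bp. At the TSS the first-listed LSD1-LKO curve lay 12.6 percentage points under the control curve (62.1% against 74.6%). In the second-listed libraries the curves at the TSS were 87.2% in LSD1-LKO and 88.5% in control. The depth of the dip thus differed more between libraries of 1 group than between the second-listed libraries of the 2 groups. About the LSD1 centre, first-listed control cover did not dip but rose from 75.3% at −400 bp to 82.8% at the centre and 89.9% at 300 bp. A further set was 7734 genes with control H3K4me2 at a promoter and no LSD1 peak within 2 kb. These were taken at 1 TSS each, whereas members were taken at the TSS nearest the LSD1 peak. There the first-listed libraries gave 52.9% in LSD1-LKO and 64.9% in control at the TSS, and the second-listed libraries 75.1% and 80.5%. At the 4721 genes with a member, likewise at 1 TSS each, the first-listed libraries gave 58.1% in LSD1-LKO and 68.7% in control. The second-listed libraries gave 82.8% and 84.05%. The first-listed gap was thus not larger at genes with a member.

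**Figure D2:**
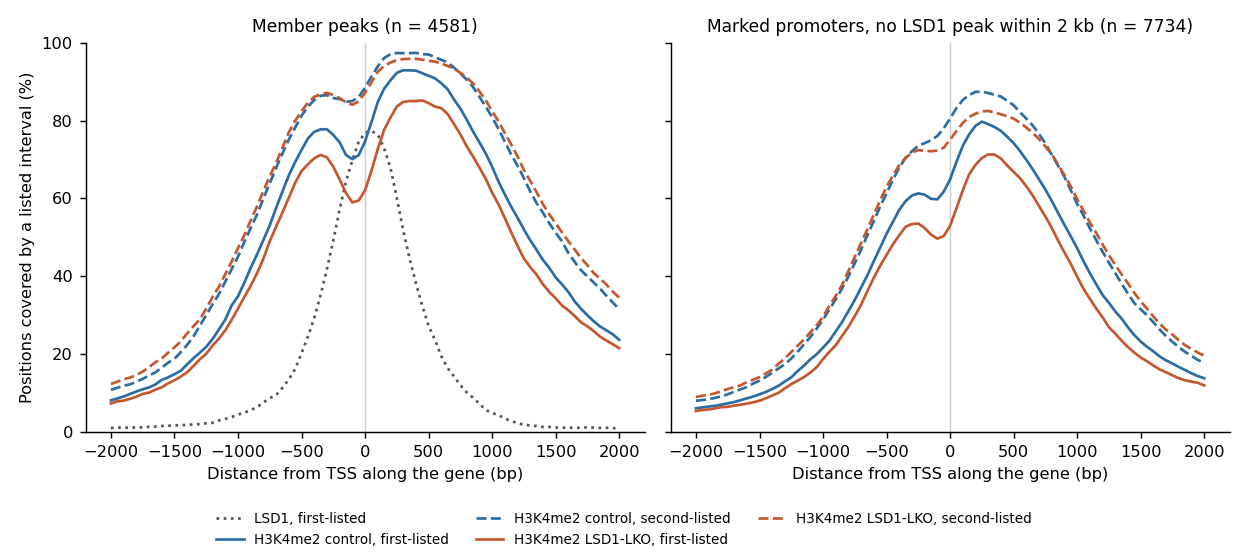
H3K4me2 and LSD1 intervals around start sites. The x axis gives the distance from the TSS along the gene in bp and the y axis the percentage of sites covered by a listed interval at that distance, for 4581 members at their nearest TSS and for 7734 marked promoters without an LSD1 peak within 2 kb. Solid and dashed lines are the first- and second-listed libraries. The solid LSD1-LKO line runs under the solid control line, by 12.6 points at the TSS of members, while the dashed lines of members lie close together.

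Most members kept H3K4me2 in LSD1-LKO liver. An LSD1-LKO interval overlapped 4298 of the 4581 (93.8%, 93.1% to 94.5%), and the 283 others made up 6.18%. Over all 7661 LSD1 peaks with control H3K4me2, 15.4% had no overlapping LSD1-LKO interval, and away from promoters the overlap was 70.9% (69.2% to 72.5%). A peak chosen for a control interval can only lose one, so the mirror image was also taken. Of the 4510 LSD1 promoter peaks with LSD1-LKO H3K4me2, 95.3% (94.6% to 95.9%) overlapped control H3K4me2. Among all 4970 LSD1 promoter peaks, 4298 had H3K4me2 in both lists, 283 only in the control list, 212 only in the LSD1-LKO list and 177 in neither. Promoter peaks marked in 1 list only were thus found in both directions.

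Of the 283 members without an overlapping first-listed LSD1-LKO interval, 185 (65.4%) overlapped the second-listed LSD1-LKO interval. In 220 an LSD1-LKO interval lay within 1 kb of the centre, and 63 had none there in the first-listed library. Compared with the 4298, the 283 had narrower LSD1 peaks (median 397 against 549 bp). Their control H3K4me2 peak ranked lower (median percentile 77.3 against 84.6).

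H3K4me2-covered length within 1 kb of the LSD1 centre, which can reach 2001 bp, was lower in LSD1-LKO with first-listed intervals and nearly equal in mean with second-listed intervals. At members its mean was 1493 bp and 1682 bp in the first- and second-listed control library. In LSD1-LKO it was 1348 bp and 1686 bp. The full 2001 bp were covered at 26.9% and 29.0% of members in the second-listed control and LSD1-LKO library, so these values are capped at many members. The first-listed LSD1-LKO library was lowest, and the LSD1-LKO mean of the second-listed library was 4.53 bp above its control counterpart. With first-listed intervals, 2860 members (62.4%, 61.0% to 63.8%) had less covered length in LSD1-LKO and 1662 (36.3%) had more, with a median change of −113 bp. Over all LSD1 peaks with control H3K4me2, 63.1% had less. Both sets were chosen for a control interval, which favours less covered length in LSD1-LKO. At promoter peaks chosen for having none, the median first-listed change by annotation class ran from 271 to 351.5 bp. With second-listed intervals at the same members, 39.8% had less, 44.5% had more and 15.7% were equal, with a median change of 0 bp. The majority with less covered length was thus not found with second-listed intervals, and the share with first-listed intervals was near that of all such LSD1 peaks.

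Only a minority of members had covered lengths that separated the groups in all 4 libraries. Both LSD1-LKO values were under both control values in 676 members (14.8%), where 19.1% of all LSD1 peaks with control H3K4me2 had this order. Both LSD1-LKO values were above both control values in 432 members (9.43%), where the share over all such LSD1 peaks was 10.3%. In the remaining 3473 members (75.8%) the groups overlapped. Choice by a control interval favours lower values in LSD1-LKO. At 4894 autosomal LSD1 promoter peaks, chosen without regard to H3K4me2, 13.7% had both LSD1-LKO values under and 11.9% above both control values. Autosomal members gave 14.5% and 9.46%. The values of a group come from the same shared entries of its list, so they are not independent of each other. With 2 libraries a group, an exact permutation test of a single region cannot fall under p = 0.33.

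The height of the H3K4me2 intervals is given as ranks within each library's own list. By fold enrichment, the median control interval at members ranked at percentile 84.3 and 82.5 in the first- and second-listed library. The median LSD1-LKO interval at the 4298 members that had one ranked at 83.8 and 83.6, between the control values. The members were chosen for a control interval and the lists differ in length, so these ranks are a description. The LSD1-LKO minus control difference was 0.31 percentile points, and it was −4.88 points with the stricter p-value. An exact two-sided permutation test over the 4 libraries gave p = 1 and p = 0.33, the latter being the smallest it can give, so it could not have called a difference.

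The LSD1 centre itself lay inside H3K4me2 in both first-listed libraries in 2899 members (63.3%), in control only in 892 (19.5%), in LSD1-LKO only in 345 (7.53%) and in neither in 445 (9.71%). Among the 892, LSD1-LKO intervals lay on both sides of the uncovered centre in 590 (66.1%), on 1 side in 256 and nowhere within 1 kb in 46. Loss of cover at the centre was thus mostly a gap between flanking intervals. With second-listed intervals the centre was covered in 92.6% of members in control and 90.9% in LSD1-LKO, against 82.8% and 70.8% with first-listed intervals.

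The share of members with less covered length changed little with LSD1 rank in first-listed intervals. In 5 equal groups of members by LSD1 rank, the share with less covered length in first-listed LSD1-LKO intervals lay between 62.0% and 63.3%. With second-listed intervals this share was 35.4% in the group of highest rank and between 39.6% and 41.6% in the others. Overlap with LSD1-LKO H3K4me2 was 91.7% in the group of lowest rank and 95.4% in that of highest rank. By position, the overlap was 87.6% (82.0% to 91.7%) at centres more than 500 bp upstream and between 92.3% and 95.3% in the 7 other distance classes. The centre was outside control H3K4me2 most often just upstream of the TSS, where it was covered in 72.5% of the 851 members at −100 to −1 bp, against 94.0% of the 549 beyond 250 and up to 500 bp downstream.

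The clearest difference among chromosomes was on the X chromosome, which was singled out after its values were seen. Of 57 X-linked members, 38 (66.7%, 53.7% to 77.5%) overlapped LSD1-LKO H3K4me2, against 94.2% (93.4% to 94.8%) of 4524 autosomal members and from 91.5% to 96.1% on the single autosomes. With second-listed LSD1-LKO intervals the shares were 80.7% and 97.5%. Median covered length at X-linked members was 1000 and 1394 bp in the control libraries and 686 and 1243 bp in the LSD1-LKO libraries. At autosomal members it was 1554 and 1773 bp in control and 1405 and 1798 bp in LSD1-LKO. X-linked intervals made up 1.49% of the control list and 1.12% of the LSD1-LKO list, and 53.4% of X-linked control intervals against 68.3% of autosomal ones overlapped an LSD1-LKO interval. In the mirror image, 62.6% of X-linked and 64.2% of autosomal LSD1-LKO intervals overlapped a control interval. The methods name no sex for the ChIP-seq animals in particular, and its part in these values was not tested.

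**Figure D3:**
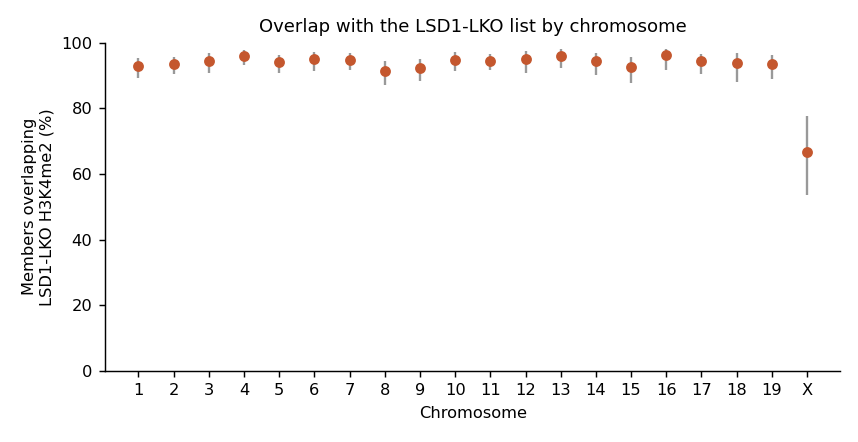
Overlap with LSD1-LKO H3K4me2 by chromosome. Points give the percentage of members on each chromosome that overlapped a first-listed LSD1-LKO interval, and lines the 95% Wilson confidence intervals. The X chromosome, with 57 members, is at 66.7%, and the autosomes lie between 91.5% and 96.1%.

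At single genes, losses and gains were both found. Among the 63 members with no first-listed LSD1-LKO interval within 1 kb, the 6 with the highest-ranking control intervals were at Nup50, Plekhj1, Pdik1l, Cep68, Cbl and Gata6. Cbl, a ubiquitin ligase that dampens receptor tyrosine kinase signalling, had covered lengths of 1895 and 1654 bp in control and 0 bp in both LSD1-LKO libraries. Gata6, an endoderm transcription factor, had 1708 and 1785 bp in control and 0 bp in both LSD1-LKO libraries. Cep68, a centrosomal protein, had 1917 and 2001 bp in control and again 0 bp in LSD1-LKO. At these 3 genes the libraries of the groups did not overlap. An interval found in only 1 LSD1-LKO library would be absent from both, so 0 bp in both is not independent agreement.

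At the other 3 genes the second-listed LSD1-LKO library held H3K4me2. Nup50, a nuclear pore protein, had 1556 and 1729 bp in control and 0 and 716 bp in LSD1-LKO. Plekhj1, which shared its promoter with the splicing factor gene Sf3a2, had 1570 and 1790 bp in control and 0 and 883 bp in LSD1-LKO. Pdik1l, a kinase, had 1661 and 2001 bp in control and 0 and 1184 bp in LSD1-LKO. Here the LSD1-LKO values were lower in both libraries and varied widely between them.

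The 5 largest falls in first-listed covered length were at Jmjd4, Trappc13, Dhx30, Cep68 and Rps28. Apart from Cep68, each of these peaks lay at a divergent gene pair, as did 9.04% of all members. Over all members at such pairs the median change was −120 bp, against −112 bp at the others, and 94.0% against 93.8% overlapped LSD1-LKO H3K4me2. Jmjd4, a lysyl hydroxylase gene paired with Snap47, had 2001 bp in both control libraries. Dhx30, an RNA helicase of mitochondrial ribosome assembly paired with Smarcc1, had 1939 and 1857 bp in control and LSD1 fold enrichments of 9.49 and 8.55. Rps28, a protein of the small cytosolic ribosomal subunit paired with the complex I gene Ndufa7, had 1897 and 1940 bp in control. Trappc13, a trafficking complex gene paired with Trim23, had 2001 and 1055 bp in control. All 5 were at 0 bp in both LSD1-LKO libraries, which means that no interval shared by both libraries lay there.

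The 5 largest rises were at Asah1, Acsm5, Fam234a, Epn2 and Cyp2d22, and the second-listed libraries narrowed most of them. Asah1, the lysosomal acid ceramidase, had 501 and 1703 bp in control and 1860 and 1821 bp in LSD1-LKO. Epn2, an endocytic adaptor, had 567 and 1372 bp in control and 1695 and 1754 bp in LSD1-LKO. Cyp2d22, a cytochrome P450, had 772 and 2001 bp in control and 1865 and 2001 bp in LSD1-LKO. Fam234a had 702 and 2001 bp in control and 1898 and 1977 bp in LSD1-LKO. Acsm5, a mitochondrial medium-chain acyl-CoA synthetase, had 505 and 1846 bp in control and 1769 and 1334 bp in LSD1-LKO. Of these 5, only Asah1 and Epn2 had both LSD1-LKO values above both control values.

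**Figure D4:**
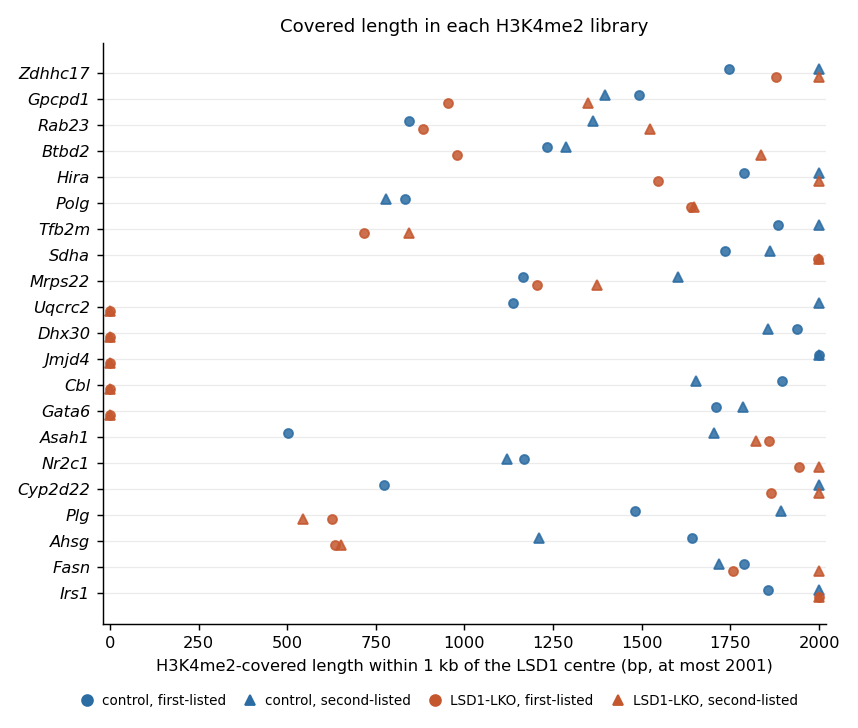
H3K4me2-covered length in each library at 21 named members. The x axis gives the covered length within 1 kb of the LSD1 centre in bp, circles and triangles are the first- and second-listed library, and the colours are control and LSD1-LKO. Uqcrc2, Dhx30, Jmjd4, Cbl and Gata6 are at 0 bp in both LSD1-LKO libraries, whereas Polg and Nr2c1 lie higher in LSD1-LKO. Only intervals shared by both libraries of a group were listed.

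The genes with a member were counted in gene lists. Of all 21853 protein-coding genes, 21.6% had a member, and of the 12857 genes with control H3K4me2 within 1 kb of a TSS, 36.7% had one. Because the members were chosen for control H3K4me2, the shares that follow are of the marked genes of each list and are read against 36.7%. No test of the lists was made.

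Genes of lipid and cholesterol synthesis were the list with the highest share. Of 24 marked genes, 18 had a member (75%, 55.1% to 88.0%). Of their 21 member peaks, 18 overlapped LSD1-LKO H3K4me2, against 93.8% of all members. Both LSD1-LKO values were under both control values at 0 and above them at 1, against 14.8% and 9.43% of all members. Covered length was lower in LSD1-LKO at 14 and higher at 7 with first-listed intervals. With second-listed intervals it was lower at 3 and higher at 11. All members gave 62.4% and 36.3% first-listed, and 39.8% and 44.5% second-listed. Srebf1, which encodes the lipogenic transcription factor SREBP1, had LSD1 fold enrichments of 3.76 and 4.99 and covered lengths of 1916 and 2001 bp in control and 1771 and 2001 bp in LSD1-LKO. Fasn, the fatty acid synthase, had fold enrichments of 5.17 and 3.26 and covered lengths of 1787 and 1717 bp in control and 1757 and 2001 bp in LSD1-LKO. Insig1, which retains SREBP in the endoplasmic reticulum, had fold enrichments of 4.92 and 5.50. Mvd, a mevalonate pathway decarboxylase, had 4.01 and 4.71. The covered lengths of the groups touched or overlapped at Srebf1 and Fasn.

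**Figure D5:**
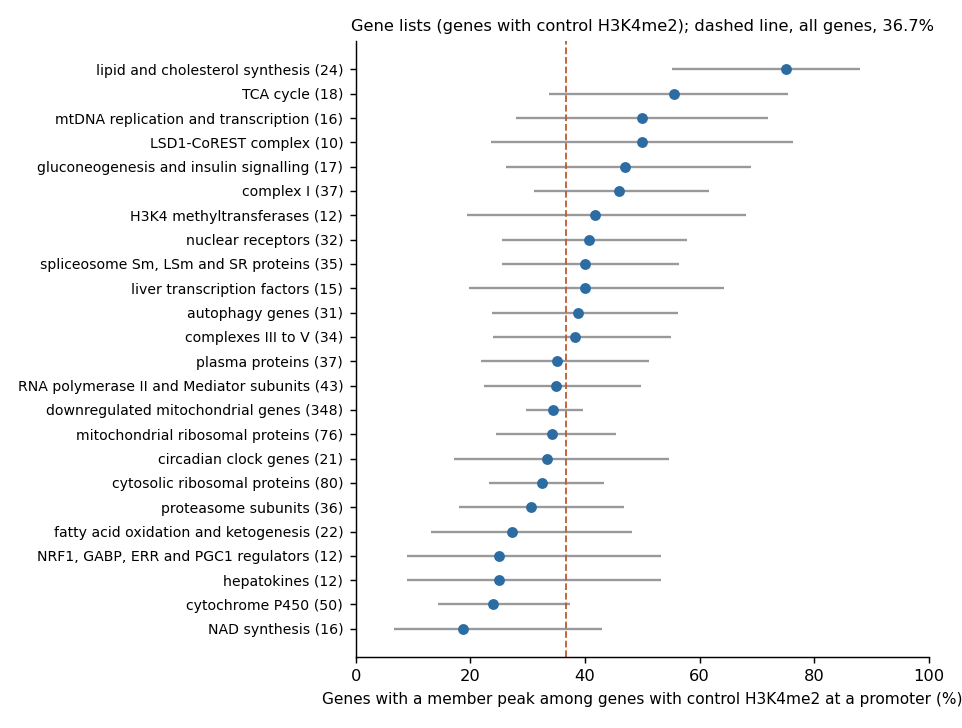
Members in gene lists. For lists with at least 10 marked genes, points give the percentage of genes with a member peak among the genes with control H3K4me2 at a promoter (number in brackets), lines are 95% Wilson confidence intervals, and the dashed line is the share over all such genes, 36.7%. Lipid and cholesterol synthesis is highest at 75% and NAD synthesis lowest at 18.8%, and the intervals of all lists shown but lipid and cholesterol synthesis include the dashed line.

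Members at mitochondrial genes were about as frequent as over all marked genes. Of the 356 mitochondrial genes that the study lists as lower in LSD1-LKO liver, 348 were marked in control and 120 had a member, which is 34.5% of those marked (29.7% to 39.6%). The list was chosen on RNA of this mouse model and is not independent of it. Of its 128 member peaks, 118 overlapped LSD1-LKO H3K4me2, near the 93.8% of all members. Covered length was lower in LSD1-LKO at 81 and higher at 45 with first-listed intervals, and lower at 63 and higher at 50 with second-listed intervals. Both LSD1-LKO values were under both control values at 31 of the 128 peaks, a larger share than the 14.8% of all members. They were above both control values at 11, near the 9.43% of all members. The share with lower second-listed covered length was also above the 39.8% of all members. These differences were not tested.

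Among the 16 genes of mtDNA replication and transcription, 8 had a member. Polg, the catalytic subunit of the mitochondrial DNA polymerase (LSD1 peak chr7:79465848-79467058, fold enrichments 6.64 and 4.61), had covered lengths of 833 and 778 bp in control and 1639 and 1646 bp in LSD1-LKO. Tfb2m, a mitochondrial transcription factor (chr1:179546121-179546823, 3.01 and 5.34), had 1884 and 2001 bp in control and 717 and 843 bp in LSD1-LKO. Polg was thus higher and Tfb2m lower in LSD1-LKO, each without overlap between the groups. Mgme1, a mitochondrial exonuclease, had fold enrichments of 5.83 and 8.14, and Mterf3, a mitochondrial transcription terminator family protein, had 7.12 and 5.59.

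In the TCA cycle, 10 of 18 marked genes had a member (55.6%, 33.7% to 75.4%). Sdha, the flavoprotein of succinate dehydrogenase (chr13:74349655-74350793), had covered lengths of 1735 and 1862 bp in control and 1997 and 2001 bp in LSD1-LKO. Sdhb, its iron-sulfur subunit, had 1284 and 1719 bp in control and 417 and 1855 bp in LSD1-LKO. The values of Sdha did not overlap between the groups and those of Sdhb did. Of 37 marked complex I genes 17 had a member, led by Ndufs4 with LSD1 fold enrichments of 8.07 and 5.20. Of 34 marked genes of complexes III to V 13 had one. Among these, Uqcrc2, a core protein of complex III (chr7:120634841-120635462), had 1137 and 2001 bp in control and 0 bp in both LSD1-LKO libraries. It thus had no shared LSD1-LKO interval there. Cox4i1, a cytochrome c oxidase subunit, had 1692 and 1857 bp in control and 922 and 1125 bp in LSD1-LKO.

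Mitochondrial ribosomal proteins had members at 26 of 76 marked genes (34.2%). Both LSD1-LKO values were under both control values at 7 of their 29 peaks and above them at 1, against 14.8% and 9.43% of all members. Mrps30 had 2001 and 1843 bp in control and 1189 and 1508 bp in LSD1-LKO, and Mrps18c had 1648 and 1699 bp in control and 1953 and 1902 bp in LSD1-LKO. Mrps22 had a low LSD1 peak, with fold enrichments of 1.86 and 3.34, and 1166 and 1603 bp in control against 1205 and 1374 bp in LSD1-LKO. Cytosolic ribosomal proteins had members at 26 of 80 marked genes (32.5%).

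Of 16 marked NAD synthesis genes, 3 had a member (18.8%, 6.59% to 43.0%), namely Nadk2, Nmnat3 and Qprt. Of 7 sirtuin genes, Sirt1 and Sirt7 had one (28.6%, 8.22% to 64.1%). Both intervals include 36.7%. Sirt1 had LSD1 fold enrichments of 4.91 and 8.14, and its covered lengths of 2001 and 1139 bp in control and 1490 and 2001 bp in LSD1-LKO overlapped. Among regulators of mitochondrial genes, 3 of 12 had a member. These were Nrf1 (5.39 and 4.12), Nfe2l2 (3.34 and 4.53) and Esrra (3.0 and 4.19).

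Genes of the LSD1 complex and H3K4 methyltransferase genes also had members, and the intervals of both shares include the 36.7% of all marked genes. In the LSD1-CoREST list, 5 of 10 marked genes had a member (50%, 23.7% to 76.3%), with 8 peaks in all. Phf21a, which encodes the BHC80 reader of unmethylated H3K4, had LSD1 fold enrichments of 9.12 and 6.82, and Rcor3, a CoREST paralog, had 5.39 and 6.27. Zmym2, Gse1 and Hdac1 had lower-ranking peaks. First-listed covered length was lower in LSD1-LKO at all 8 peaks, and both LSD1-LKO values were under both control values at 5 of them, where 62.4% and 14.8% of all members had these orders. The 8 peaks belong to only 5 genes. At Hdac1 these were 1183 and 1228 bp in control and 1043 and 1063 bp in LSD1-LKO. Of 12 marked H3K4 methyltransferase genes, 5 had a member (41.7%, 19.3% to 68.0%). Kmt2a, which encodes MLL1, had fold enrichments of 9.14 and 10.5 and ranked at percentile 99.9 of the LSD1 list. None of the 4 other H3K4 demethylase genes had a member.

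At genes of hepatocyte function, the lists near the 36.7% background were plasma proteins (13 of 37 marked genes, 35.1%), liver transcription factors (6 of 15) and nuclear receptors (13 of 32, 40.6%). Of the 15 member peaks at plasma protein genes, 9 overlapped LSD1-LKO H3K4me2, against 93.8% of all members. Plg, which encodes plasminogen, had 1482 and 1893 bp in control and 625 and 544 bp in LSD1-LKO. Ahsg, which encodes fetuin-A and stands in the hepatokine list, had 1642 and 1211 bp in control and 635 and 651 bp in LSD1-LKO. Cytochrome P450 genes had members at 12 of 50 marked genes (24.0%, 14.3% to 37.4%). Nr2c1, an orphan nuclear receptor, had 1167 and 1121 bp in control and 1942 and 2001 bp in LSD1-LKO. Plg and Ahsg were thus lower and Nr2c1 higher in LSD1-LKO without overlap between the groups.

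Insulin and glucose genes had members at 8 of 17 marked genes (47.1%, 26.2% to 69.0%). Of their 11 peaks, first-listed covered length was lower in LSD1-LKO at 3 and higher at 7, against 62.4% and 36.3% of all members. With second-listed intervals it was lower at 6 and higher at 2, against 39.8% and 44.5% of all members. Irs1, an insulin receptor substrate, had LSD1 fold enrichments of 3.51 and 8.21 and covered lengths of 1856 and 2001 bp in control and 2001 bp in both LSD1-LKO libraries. G6pc, the glucose-6-phosphatase catalytic subunit, had little H3K4me2 around its LSD1 peak, with 379 and 806 bp in control and 539 and 693 bp in LSD1-LKO. Circadian genes had members at 7 of 21, among them Clock, with 2001 bp in all 4 libraries. At the 10 circadian peaks covered length was lower in LSD1-LKO at 2 and higher at 6 with first-listed intervals. With second-listed intervals it was lower at 2 and higher at 3. Both LSD1-LKO values were above both control values at 2 peaks and under them at 0, against 9.43% and 14.8% of all members. Members lay at 6 of 22 marked genes of fatty acid oxidation and ketogenesis and at 3 of 12 marked hepatokine genes. Among lists of general cell functions, they lay at 11 of 36 marked proteasome genes, 14 of 35 spliceosome genes, 15 of 43 genes of RNA polymerase II and Mediator, and 12 of 31 autophagy genes. At the 17 peaks of RNA polymerase II and Mediator genes, both LSD1-LKO values were above both control values at 4 and under them at 0. These differences between lists were not tested. No member lay at a gene of the neuronal list or the olfactory receptor list, of which 4 genes each were marked.

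The DNA at members was rich in CpG. In 500-bp windows at the LSD1 centre, the median GC content was 65.4% and the median number of CpG dinucleotides 43. At promoter peaks without control H3K4me2 these were 56.0% and 16, and at LSD1 peaks away from promoters 46.4% and 5. The observed to expected CpG ratio was at or above 0.6 in 3750 members (81.9%), against 50.8% of all protein-coding promoters and 73.4% of marked promoters with no LSD1 peak within 2 kb. Overlap with LSD1-LKO H3K4me2 was 95.3% (94.6% to 96.0%) at the 3750 CpG-rich members and 87.0% (84.5% to 89.1%) at the 831 others. The share with less covered length was 62.7% and 61.3%.

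Letters of 12 motifs, none of which holds another, were searched on both strands in the same windows, and in windows of the same length at the TSS of other promoters. NRF1 letters (GCATGCGC) were found at 239 members (5.22%, 4.61% to 5.90%), where 4.23% of all 21853 promoters and 5.12% of the marked promoters without LSD1 held them. The ETS/GABP letters (CCGGAAGT) were at 346 members (7.55%, 6.82% to 8.35%), against 5.96% of all promoters and 9.19% of the marked ones without LSD1. ERR letters (CAAGGTCA) were at 98 members (2.14%), against 2.12% of all promoters. In windows at the TSS of the 4721 genes with a member, the NRF1, ETS/GABP and ERR letters were at 6.71%, 9.38% and 1.48%, so the shares depended on where the window was placed.

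The letters of YY1 (AAGATGGC), a zinc finger factor, were at 344 members (7.51%, 6.78% to 8.31%), against 6.17% (5.65% to 6.73%) of the marked promoters without LSD1. Those of SP/KLF factors (GGGCGGG) were at 58.3% (56.9% to 59.7%) against 55.1% (54.0% to 56.2%). NF-Y letters (GATTGG) were at 19.3% against 24.4%, and at 22.7% in windows at the TSS of genes with a member. In windows of 200 bp at the LSD1 centre, YY1 letters were at 3.12% of members, against 3.69% at the TSS of marked promoters without LSD1. For SP/KLF these shares were 34.4% against 39.5%, and for NRF1 2.10% against 3.58%. In windows of 200 bp at the TSS of genes with a member, the YY1, SP/KLF and NRF1 letters were at 5.21%, 44.8% and 4.45%. The order thus depended on where the window was placed. CRE letters (TGACGTCA) were at 2.58%, ZBTB33 letters (CTCGCGAG) at 2.18% and USF E-box letters (TCACGTGA) at 1.70%. Letters of the liver factors C/EBP (TTGCGCAA), HNF4A (CAAAGTCCA) and FOXA (TGTTTAC) were at 0.46%, 0.81% and 3.62% of members. At LSD1 peaks away from promoters the C/EBP, HNF4A and FOXA letters were at 0.41%, 2.12% and 9.32%. At the marked promoters without LSD1 they were at 0.36%, 0.61% and 3.26%. A match describes the letters and is not evidence of binding.

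At members with NRF1 letters, 95% overlapped LSD1-LKO H3K4me2, and first-listed covered length was lower at 61.1%. With ETS/GABP letters these shares were 94.2% and 66.5%, with ERR letters 90.8% and 54.1%, and with ZBTB33 letters 90.0% and 68.0%. The H3K4me2 of members without NRF1 letters gave 93.8% and 62.5%. The LSD1 centre was inside first-listed control H3K4me2 at 73.6% of members with NRF1 letters, 74.7% with YY1 letters and 76.9% with ETS/GABP letters, where all members gave 82.8%.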

How the data were processed

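LSD1 and H3K4me2 were measured by ChIP-seq of mouse liver. The study's methods state that the authors mapped reads to mm10 with Bowtie2, called peaks in each library with MACS2 at p = 0.01, and kept peaks shared by both libraries. The submitters' processing notes name bedtools 2.25.0. The control libraries are called input in the labels and IgG in the methods. The deposited lists give, for each library, the fold enrichment (a ratio over local background) and the −log10 p-value and q-value of each peak as the authors' MACS2 run wrote them. Listed p-values reached 0.05, above the stated limit. Read depth is not given in the sources used here. The 12 columns of integer scores and summit offsets were not used.

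Start sites were those of protein-coding transcripts of GENCODE vM21 (54361 TSSs of 21853 genes), and sequence was read from GRCm38. Intervals were compared with Python 3.11.15, numpy 2.4.6 and pandas 2.3.3, checked with bedtools 2.31.1, and the interval steps were tested on simulated data. The first-listed interval of each library pair was the main value and the second-listed interval the other. Shares carry 95% Wilson intervals. The members and gene lists were chosen with earlier results of these data known. Named genes were the 8 members of highest LSD1 rank, the 6 of highest control rank without an LSD1-LKO interval within 1 kb, the 5 largest falls and 5 largest rises in covered length, the highest-ranking members of each gene list, genes the study names, the peaks nearest the 1 kb limit, and high-ranking members with motif letters for the sequences. No test was made over regions or genes. The alternatives were a stricter p-value, an overlap of 50%, the second-listed library, 1 TSS per gene, a promoter of 500 bp and, for motifs, a window of 200 bp.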

Additional observations from a re-analysis of the deposited data

How the results depend on the processing

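With MACS p-values of 1e-05 or lower in both libraries of every list, 911 members at 1002 genes were found, which were 85.2% of such promoter peaks. Of these, 81.9% overlapped LSD1-LKO H3K4me2, 69.4% had less covered length in LSD1-LKO and 18.4% had their centre outside control H3K4me2, and the rank difference turned to −4.88 percentile points (exact permutation p = 0.33). With an overlap of 50% of the LSD1 peak, members were 81.6% of promoter peaks, 59.5% lay downstream, 81.6% overlapped LSD1-LKO H3K4me2, 64.8% had less covered length, 6.73% had an uncovered centre and the rank difference was −0.43 points. With the second-listed library alone, members were 94.9% of promoter peaks, 97.8% overlapped LSD1-LKO H3K4me2, 40.1% had less covered length and 8.42% had an uncovered centre. With 1 TSS per gene, members were 93.4% of promoter peaks and 62.1% lay downstream. With a promoter of 500 bp they were 93.3%. In windows of 200 bp each of the 12 motifs was found at fewer members than in 500 bp. With 200 bp at the LSD1 centre, NRF1, YY1 and SP/KLF letters were less common than at the TSS of marked promoters without LSD1. With 200 bp at the TSS of genes with a member they were more common than there. Settings chosen after seeing the data kept the members and changed the library. Second-listed LSD1-LKO intervals overlapped 97.3%. The share with less covered length was 39.8% with second-listed intervals of both groups, 21% with first-listed control and second-listed LSD1-LKO intervals, and 80.7% with the reverse. The cause was not tested. No paired analysis was possible because the lists do not say which replicate number each library has. Unknown depth and lists restricted to shared peaks limit every count.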
